A study of Mus musculus with 23 samples.

Results

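A set of 10 genes of liver sinusoidal endothelial cells was followed in whole liver RNA: *Stab1*, *Stab2*, *Lyve1*, *Clec4g*, *Kdr*, *Pecam1*, *Oit3*, *Dnase1l3*, *Rspo3* and *Wnt2*. They were taken by symbol from the deposited table of counts, which holds 27179 genes, and 10 of 10 symbols were found. Sinusoidal endothelial cells line the capillaries of the liver. Unlike the endothelium of most organs they have open pores and no continuous basement membrane, and they take up waste molecules from blood through scavenger and lectin receptors. Those near the central vein also secrete Wnt proteins and R-spondins, signals that hold neighboring hepatocytes in their pericentral state.

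RNA was sequenced from liver tissue without visible tumors of 15 female mice: 6 Ctrl, 6 ABpIF/+ and 3 ABpIF/F. Every mouse carried *Alb-Cre*, which drives recombination in hepatocytes, and *Trp53* flx/flx, so the controls lacked p53 in hepatocytes too. Ctrl mice had wild-type *Braf* and were *Icmt* flx/+. ABpIF/+ mice carried the conditional *Braf* CA allele (BRAF V600E) with *Icmt* flx/+, and ABpIF/F mice carried it with *Icmt* flx/flx. *Icmt* encodes the methyltransferase that finishes the processing of prenylated proteins such as RAS. The endothelial cells themselves are thus not the cells in which *Alb-Cre* acts. ABpIF/F mice were rarely born, and only 3 were obtained. Ages at sampling are not in the labels and may differ between groups. The genotype field of the labels names *Braf* differently from the series' design text, and the design text was followed.

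The libraries held from 24742910 to 32262649 counted reads. The targeted gene *Icmt* was at a mean of 15.9 CPM (counts divided by the library size that edgeR's TMM scaling gives) ± 0.711 (SD, n = 3) in ABpIF/F and at 32.7 ± 3.49 (SD, n = 6) in ABpIF/+ mice. The strain field of the labels separates 5 of the 6 Ctrl mice from BG3, the remaining Ctrl mouse, and from all ABpIF/+ and ABpIF/F mice. Strain label and *Braf* genotype are therefore nearly confounded. A score of clock genes was 0.995 to 3.05 in the ABpIF/F mice and 2.29 in the Ctrl mouse malpa387. It was -1.19 to -0.323 in the other mice. The score may follow time of day or genotype, which cannot be told apart here. The part of strain label or clock score in the results below was not tested beyond fits that held 1 of them as a covariate. Values of these fits are given for some of the genes and comparisons, not for all.

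All 10 genes had reads in every mouse, so the sinusoidal markers were present in each liver. Positions are those of GENCODE M21 on GRCm38. *Stab1* lies on chromosome 14 from 31139013 to 31168641, *Stab2* on chromosome 10 from 86841198 to 87008025, and *Lyve1* on chromosome 7 from 110850607 to 110863239. *Clec4g* lies on chromosome 8 from 3707064 to 3720651, *Kdr* on chromosome 5 from 75932827 to 75978458, and *Pecam1* on chromosome 11 from 106654217 to 106750628. *Oit3* spans 59422958 to 59441778 and *Rspo3* spans 29452416 to 29535867, both on chromosome 10. *Dnase1l3* is on chromosome 14 from 7964533 to 7994573 and *Wnt2* on chromosome 6 from 17988940 to 18030585. All are protein-coding genes on the minus strand. Opposite-strand genes cover 13.1% of the exonic bases of *Rspo3* and 5.93% of those of *Clec4g*, and between 0 and 1.61% of the others. The libraries were stranded, but the strand setting of the counting is not given in the sources used here, so reads of these overlaps could be shared.

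The 250 bases before the start of transcription are shown for *Clec4g*, a gene called lower in ABpIF/+ mice, and for *Stab1*, which was not. They come from RefSeq on GRCm38.p6, minus strand, at chr8:3720652-3720901 and chr14:31168642-31168891. Capitals mark matches on either strand to the ETS letters AGGAAG or CGGAAG and to the GATA letters AGATAA or AGATAG, or else TGATAA or TGATAG; ETS and GATA factors are families known from endothelial genes.
Clec4g: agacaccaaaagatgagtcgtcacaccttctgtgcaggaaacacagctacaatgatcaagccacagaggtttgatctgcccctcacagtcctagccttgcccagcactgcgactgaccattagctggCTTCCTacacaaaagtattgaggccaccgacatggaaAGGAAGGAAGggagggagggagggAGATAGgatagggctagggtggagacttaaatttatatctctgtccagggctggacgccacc
Stab1: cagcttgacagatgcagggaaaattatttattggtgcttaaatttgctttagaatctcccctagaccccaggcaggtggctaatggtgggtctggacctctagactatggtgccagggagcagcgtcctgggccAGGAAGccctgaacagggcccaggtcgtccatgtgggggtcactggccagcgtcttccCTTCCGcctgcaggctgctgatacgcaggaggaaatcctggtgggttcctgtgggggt
The *Clec4g* window holds 3 ETS matches, a pair of which overlap, and 1 GATA match, while that of *Stab1* holds 2 ETS matches and 0 GATA matches. Of all 32851 promoter windows, 39.2% hold an ETS match, 26.5% a GATA match and 9.21% both, so such matches are common. These letters describe the windows only.

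Per kilobase of exon, the levels in Ctrl livers were highest for *Clec4g*, at 21.2 CPM per kilobase ± 4.63 (SD, n = 6). *Dnase1l3* followed at 11.4 ± 2.08 and *Oit3* at 8.44 ± 1.42 CPM per kilobase, a difference larger than either SD. *Stab2* (5.64 ± 0.866), *Stab1* (4.82 ± 0.649) and *Kdr* (4.13 ± 0.754) came next, and neighbors among these 3 did not differ beyond their spread. *Pecam1* was at 2.67 ± 0.621, *Lyve1* at 2.14 ± 0.905, *Rspo3* at 1.5 ± 0.244 and *Wnt2* at 1.06 ± 0.488 CPM per kilobase, again with overlapping neighbors. In ABpIF/F livers *Lyve1* was at 8.59 ± 4.48 (SD, n = 3) CPM per kilobase, above *Oit3* at 8.43 ± 2.87, a difference within their spread.

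Expression of *Braf* V600E with 1 floxed *Icmt* allele was compared with Ctrl first. *Clec4g* and *Rspo3* fell, by more than 2-fold each, and 0 members rose. *Oit3*, *Dnase1l3*, *Kdr* and *Wnt2* lay lower by 0.90 to 1.28 on the log2 scale, at adjusted p between 0.0141 and 0.0476, and were not called. *Oit3* was called without BG88 (-1.10, edgeR adjusted p = 0.00566). With strain label as a covariate *Oit3*, *Dnase1l3*, *Kdr* and *Wnt2* had edgeR adjusted p between 0.107 and 0.415. With clock score as a covariate these genes had edgeR adjusted p between 0.0181 and 0.0642. *Stab1*, *Stab2*, *Lyve1* and *Pecam1* differed by less than 0.5 on the log2 scale. Calls needed an adjusted p below 0.01 (edgeR quasi-likelihood test, Benjamini-Hochberg over all 27179 genes) together with a log2 fold change of 1 or more in size. By this rule 2 of 10 members were downregulated against 5.35% of all genes tested, and 0 of 10 were upregulated against 4.69%. All 10 members had a mean of at least 1 CPM. Among the 12316 genes at that level, 1156 were downregulated and 1011 upregulated. At an unadjusted p below 0.05 there were 0 higher members in edgeR, and DESeq2 called 0. The median log2 fold change of the members was -0.92, and that of all genes with a read was 0.00. In whole tissue, fewer cells of a type and less RNA per cell cannot be told apart.

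**Figure D1:**
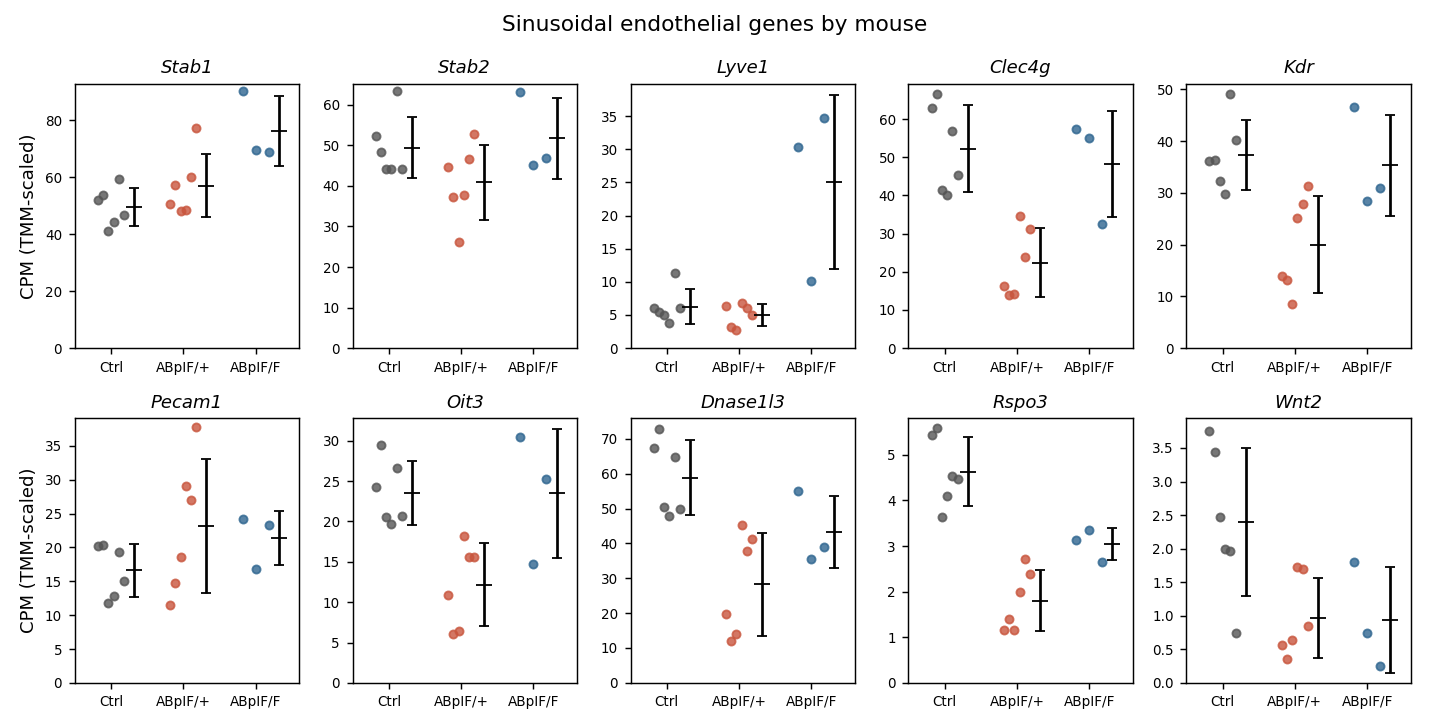
Levels of the 10 genes in CPM after TMM scaling (vertical axes, each starting at 0) in the 6 Ctrl, 6 ABpIF/+ and 3 ABpIF/F mice. Points are mice and the bars beside them are mean ± SD; *Clec4g*, *Oit3*, *Dnase1l3* and *Rspo3* have all ABpIF/+ mice below all Ctrl mice, and *Lyve1* is at 10.2 to 34.7 CPM in the ABpIF/F mice.

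*Clec4g* encodes the lectin LSECtin, which binds glycans on cells and pathogens. It was between 40.1 and 66.6 CPM in the Ctrl mice with a median of 51.2, and between 14.0 and 34.7 CPM in the ABpIF/+ mice with a median of 20.1. The 3 ABpIF/F mice had 57.3, 55.1 and 32.4 CPM. The ABpIF/+ and Ctrl mice did not overlap, and the lowest ABpIF/F mouse, BG38, lay below the highest ABpIF/+ mouse. The log2 fold change of ABpIF/+ vs Ctrl was -1.22 (SE 0.25, edgeR adjusted p = 0.00143). With strain label as a covariate it was -1.57 and the adjusted p was 0.0269, so the call was lost. BG3, the Ctrl mouse with the strain label of the mutant mice, had the highest *Clec4g* of all mice, at 66.6 CPM. It also lay above the other Ctrl mice for *Pecam1*, *Oit3*, *Dnase1l3* and *Rspo3*, and within their range for the remaining members. A value of 1 mouse cannot show the part of strain label.

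*Rspo3* encodes R-spondin 3, the secreted amplifier of Wnt signaling made by central vein endothelium. Its levels were 3.64 to 5.58 CPM in Ctrl (median 4.51) and 1.17 to 2.72 CPM in ABpIF/+ mice (median 1.69). In the ABpIF/F mice it was at 3.133, 3.358 and 2.659 CPM, below every Ctrl mouse, and 1 of these 3 lay within the ABpIF/+ range. The log2 fold change was -1.35 (SE 0.23, edgeR adjusted p = 7.29e-05) in ABpIF/+ vs Ctrl, and it was called with strain label as a covariate too, at -1.62 (adjusted p = 0.00543). In ABpIF/F vs Ctrl it was -0.60 (SE 0.27, edgeR adjusted p = 0.157). *Rspo3* was counted at 29 to 146 reads per mouse, so counting error adds to the spread.

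*Wnt2* encodes a Wnt ligand of the same central vein cells. It was low in all groups, at 0.746 to 3.76 CPM in Ctrl (median 2.23), 0.348 to 1.73 CPM in ABpIF/+ mice (median 0.749), and 1.80, 0.750 and 0.249 CPM in the ABpIF/F mice. These groups overlapped, since the Ctrl mouse malpa462 had 0.746 CPM. The log2 fold changes were -1.28 (SE 0.46, edgeR adjusted p = 0.0476) in ABpIF/+ vs Ctrl and -1.37 (SE 0.59, edgeR adjusted p = 0.137) in ABpIF/F vs Ctrl, and neither was called. Between 9 and 101 reads per mouse were behind these values.

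*Oit3* encodes a secreted protein with a zona pellucida domain, and *Dnase1l3* a secreted nuclease that digests DNA of dead cells. *Oit3* was between 19.6 and 29.5 CPM in Ctrl (median 22.4) and between 6.11 and 18.2 CPM in ABpIF/+ mice (median 13.2). *Dnase1l3* was between 47.9 and 72.8 CPM in Ctrl (median 57.7) and between 11.9 and 45.1 CPM in ABpIF/+ mice (median 28.9). For both, every ABpIF/+ mouse lay below every Ctrl mouse. The log2 fold changes were -0.95 (SE 0.27, edgeR adjusted p = 0.0141) for *Oit3* and -1.05 (SE 0.31, edgeR adjusted p = 0.0234) for *Dnase1l3*, short of the threshold on p. DESeq2 called *Dnase1l3*, at -1.07 with an adjusted p of 0.000629. Leaving out 1 mouse gave edgeR adjusted p up to 0.0532 for *Dnase1l3* and up to 0.0383 for *Oit3*. The ABpIF/F mice had 30.5, 14.8 and 25.2 CPM of *Oit3* and 54.9, 35.6 and 38.9 CPM of *Dnase1l3*.

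*Kdr* encodes VEGFR2, the main signaling receptor for VEGF-A. It was at 29.8 to 49.1 CPM in Ctrl (median 36.2), at 8.43 to 31.3 CPM in ABpIF/+ mice (median 19.6) and at 46.5, 28.4 and 31.0 CPM in the ABpIF/F mice. The ABpIF/+ range met the lower end of the Ctrl range through the mouse BG30. The log2 fold change of -0.90 (SE 0.28, edgeR adjusted p = 0.0287) was not called. Without BG30 it was -1.07 with an adjusted p of 0.00901, past both thresholds. Without BG31 it was -0.74, and leaving out 1 mouse gave edgeR adjusted p up to 0.0659.

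*Stab1* and *Stab2* encode stabilin-1 and stabilin-2, scavenger receptors, of which stabilin-2 clears hyaluronan from blood. *Stab1* was at 41.3 to 59.4 CPM in Ctrl (median 49.4) and at 48.3 to 77.3 CPM in ABpIF/+ mice (median 53.9), with a log2 fold change of 0.20 (SE 0.13, edgeR adjusted p = 0.317). *Stab2* was at 44.1 to 63.4 CPM in Ctrl (median 46.3) and at 26.2 to 52.8 CPM in ABpIF/+ mice (median 41.1), with a log2 fold change of -0.27 (SE 0.15, edgeR adjusted p = 0.198). Both overlapped between the groups.

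*Pecam1* encodes an adhesion molecule of endothelial junctions that platelets and leukocytes also carry. Its levels were 11.8 to 20.4 CPM in Ctrl (median 17.2) and 11.54 to 37.8 CPM in ABpIF/+ mice (median 22.8), with a log2 fold change of 0.48 (SE 0.26, edgeR adjusted p = 0.214). The ABpIF/+ range was wide, and all 6 Ctrl mice lay inside it. Of 6 platelet markers 2 rose in ABpIF/+ and 5 in ABpIF/F vs Ctrl, and their summed level was 3.21 to 6.81 CPM in Ctrl, 6.27 to 12.2 CPM in ABpIF/+ and 5.38 to 17.7 CPM in ABpIF/F mice. With strain label as a covariate both calls in ABpIF/+ were lost (*Gp9*, adjusted p = 0.525, and *Treml1*, 0.648), as were those of *Gp9*, *Treml1*, *Gp1bb* and *Ppbp* in ABpIF/F mice (0.287 to 0.432; 0.0434 to 0.12 with clock score). Without BG38, *Gp9*, *Treml1* and *Gp1bb* were not called in ABpIF/F vs Ctrl (0.0131 to 0.0767), and without BG40 *Gp9* was not called in ABpIF/+ vs Ctrl (0.0125). The part of platelet RNA in the *Pecam1* values was not tested.

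The loss of both *Icmt* alleles together with *Braf* V600E was compared with Ctrl next. *Lyve1* rose 4.00-fold, and 0 members fell. *Stab1* was 1.54 times as high as in Ctrl at an adjusted p of 0.00576, short of the 2-fold threshold. *Clec4g*, *Kdr*, *Oit3* and *Stab2* had log2 fold changes between -0.11 and 0.07. Thus 1 of 10 members was upregulated against 4.55% of all genes tested, and 0 of 10 were downregulated against 2.38%. Among the 12316 genes with at least 1 CPM, as all members have, 928 were upregulated and 621 downregulated, so these counts are near that share. For lower members edgeR gave 2 at an unadjusted p below 0.05, *Rspo3* and *Wnt2*, and DESeq2 called 0. The median log2 fold change of the members was -0.04 beside 0.09 for all genes with a read.

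*Lyve1* encodes a hyaluronan receptor of sinusoidal and lymphatic endothelium that some macrophages carry as well. It was at 3.79 to 11.4 CPM in Ctrl (median 5.68), at 2.66 to 6.78 CPM in ABpIF/+ mice (median 5.497), and at 30.3, 10.2 and 34.7 CPM in the ABpIF/F mice. A pair of ABpIF/F mice stood far above all others, while BG90 lay just below the highest Ctrl mouse, malpa459. The log2 fold change of ABpIF/F vs Ctrl was 2.00 (SE 0.38, edgeR adjusted p = 0.00149), and that of ABpIF/+ vs ABpIF/F was -2.33 (SE 0.38, edgeR adjusted p = 0.00056). Without the ABpIF/F mouse BG38 the first was 1.69 (adjusted p = 0.0153) and no longer called. The first was also lost with strain label as a covariate (2.22, adjusted p = 0.109), and both were lost with the clock score as a covariate (2.23, adjusted p = 0.0229, and -2.58, adjusted p = 0.0127). The 6 lymphatic markers summed to 91.6 to 160 CPM in Ctrl, 57.1 to 103 CPM in ABpIF/+ and 163 to 207 CPM in ABpIF/F mice, and most of this came from *Prox1*, *Reln* and *Flt4*, which other liver cells share. Of the more restricted lymphatic markers, *Ccl21a* had no reads in Ctrl and ABpIF/+ mice and at most 1.19 CPM in an ABpIF/F mouse. *Pdpn* was at most 0.720 CPM and *Mmrn1* at most 2.22 CPM there. Macrophage markers summed to 441 to 613 CPM in Ctrl, 186 to 326 CPM in ABpIF/+ and 376 to 918 CPM in ABpIF/F mice, and their part in the *Lyve1* values was not tested.

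*Stab1* in the ABpIF/F mice was at 90.5, 69.7 and 68.8 CPM, above every Ctrl mouse, with a log2 fold change of 0.62 (SE 0.15, edgeR adjusted p = 0.00576). The edgeR adjusted p was 0.294 with strain label and 0.0764 with clock score as a covariate. It was 0.0143 with only the groups compared in the fit, and up to 0.058 when 1 mouse was left out. *Stab2* in the ABpIF/F mice was at 63.2, 45.1 and 46.9 CPM, within the Ctrl range, with a log2 fold change of 0.07 (SE 0.18). *Pecam1* was at 24.2, 16.8 and 23.3 CPM in ABpIF/F mice, with a log2 fold change of 0.37 (SE 0.31, edgeR adjusted p = 0.555).

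The comparison of ABpIF/+ with ABpIF/F mice addresses the second *Icmt* allele within *Braf* V600E livers. *Lyve1* was the member called, 5.02-fold lower in ABpIF/+ mice, all of which lay below all 3 ABpIF/F mice. Thus 1 of 10 was downregulated, against 5.49% of all genes tested, and 0 of 10 were upregulated, against 1.76%, with 0 at an unadjusted p below 0.05 in edgeR and 0 called by DESeq2. Among the 12316 genes with at least 1 CPM, 1047 were downregulated and 458 upregulated, so these counts too are near that share. *Clec4g* was lower by 1.11 on the log2 scale (SE 0.29, edgeR adjusted p = 0.0139), *Oit3* by 0.95 (SE 0.31, adjusted p = 0.0468), *Kdr* by 0.82 (SE 0.33, adjusted p = 0.115) and *Rspo3* by 0.75 (SE 0.27, adjusted p = 0.0564), none of them called. DESeq2 called *Clec4g* as well (-1.12, adjusted p = 0.000848), and edgeR did without BG88 (-1.26, adjusted p = 0.00424) or BG30 (-1.22, adjusted p = 0.00785). With clock score as a covariate *Clec4g* was at -0.85 (edgeR adjusted p = 0.265). Its edgeR adjusted p was 0.0601 with only the groups compared in the fit, and up to 0.0671 when 1 mouse was left out. The median log2 fold change of the members was -0.68 beside -0.05 for all genes with a read. This comparison shares its ABpIF/+ mice with the first and its ABpIF/F mice with the second, so the 3 sets of values are not independent.

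**Figure D2:**
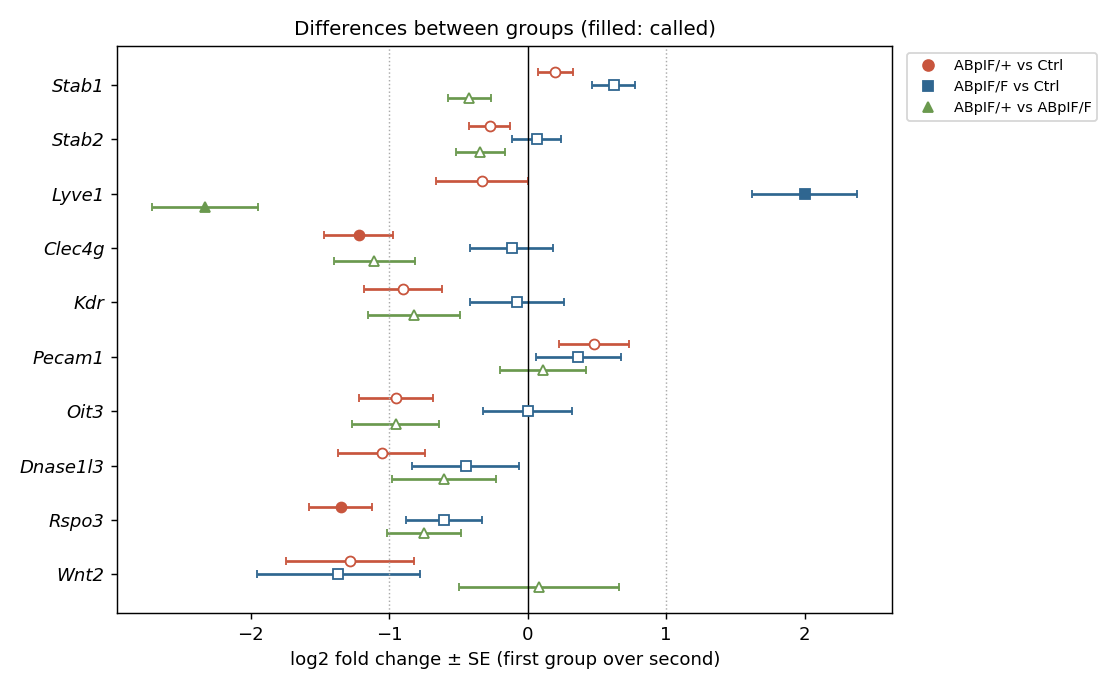
Log2 fold changes with standard errors (horizontal axis) of the 10 genes in the 3 comparisons, from edgeR. Filled symbols passed an adjusted p under 0.01 and a 2-fold change (dotted lines): *Clec4g* and *Rspo3* in ABpIF/+ vs Ctrl, and *Lyve1* in the comparisons with ABpIF/F.

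The ABpIF/+ mice differed widely among themselves. Expressed in percent of the Ctrl mean of each gene, the median over the 10 members was 27.2% in BG31, 32.6% in BG40 and 41.8% in BG55, and 72.8% in BG175, 75.2% in BG30 and 76.5% in BG88. The 6 Ctrl mice had medians of 82.2% to 122%, and the ABpIF/F mice 126% (BG183), 83.8% (BG90) and 89.0% (BG38). BG31 was among the lowest 3 of the 6 ABpIF/+ mice for 10 members, BG40 for 9 and BG55 for 8. *Stab1* was at 97.3% to 156% of the Ctrl mean in the ABpIF/+ mice, and so stood apart from this order in size. The labels name no batch or litter for these mice. They do list BG31 and BG40 with 1 sample each and the other ABpIF/+ mice, BG55 included, with 2 samples each. What this reflects is not in the labels, and the cause of the order was not tested.

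**Figure D3:**
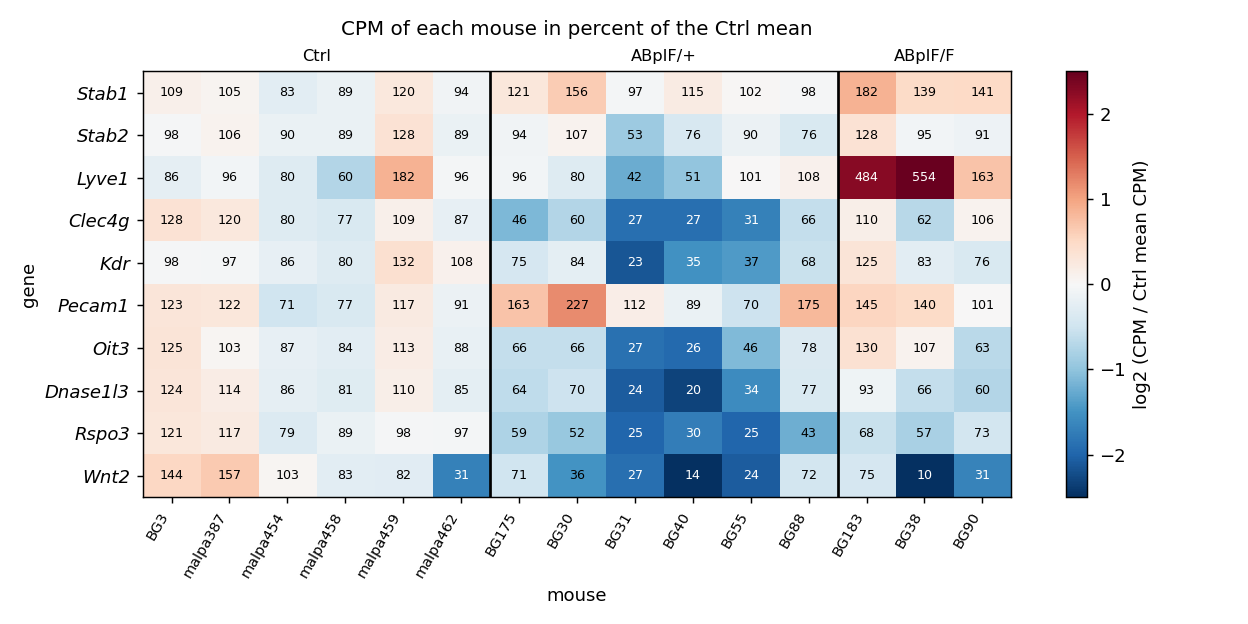
CPM of each gene (rows) in each mouse (columns) in percent of the Ctrl mean, with color giving the log2 ratio. BG31, BG40 and BG55 are the darkest blue columns of ABpIF/+, with medians of 27.2%, 32.6% and 41.8%, while the *Stab1* and *Pecam1* rows stay near or above 100% in most mice.

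Within groups the members moved together. With group means removed, all 45 of 45 pairs of members had a positive correlation of log2 CPM over the 15 mice, from 0.14 to 0.944 with a median of 0.644. With group means kept, the correlations ran from -0.229 (*Stab1* and *Wnt2*) to 0.954 (*Oit3* and *Dnase1l3*). These points share libraries and scaling. The genes outside the list most like the mean of the standardized members over the 15 mice were *Aqp1* (r = 0.965), *Mrc1* (0.955), *Fcgr2b* (0.952), *Ptprb* (0.945), *Mmrn2* (0.943), *Eng* (0.939), *Adgrl4* (0.932), *Clec14a* (0.931), *Chst15* (0.928) and *Tie1* (0.919). After removing group means they were *Ehd3* (0.956), *Arhgef15* (0.952), *Eng* (0.95), *Tpbgl* (0.946), *Aqp1* (0.945), *Mrc1* (0.94), *Cyp4b1* (0.939), *Robo4* (0.938), *Fcgr2b* (0.931) and *Cd300lg* (0.922).

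The 20 pan-endothelial genes were lower in ABpIF/+ than in Ctrl mice in 20 of 20 cases by sign of the log2 fold change, and 2 of 20 were called: *Cdh5*, the VE-cadherin of endothelial junctions (-1.39), and *Icam2* (-1.53). Their median log2 fold change was -0.67. Against ABpIF/F, 4 of 20 were called lower in ABpIF/+ mice, namely *Cdh5* (-1.72), *Icam2* (-1.61), the transcription factor *Fli1* (-1.51) and the TGF-beta co-receptor *Eng* (-1.08). Without BG38, *Icam2* (adjusted p = 0.0175), *Fli1* (0.0822) and *Eng* (0.0107) were no longer called against ABpIF/F. The *Icam2* call was also lost without BG31, BG55, BG175 or BG183 (adjusted p between 0.0103 and 0.0292), that of *Fli1* without BG31 (0.0103), and that of *Eng* without BG183 (0.0105) or, by its fold change, without BG31 (-0.97) or BG40 (-0.98). With the clock score as a covariate none of these 4 genes was called (adjusted p between 0.0366 and 0.124), nor with only the groups compared in the fit (0.012 to 0.0222). Scaling to the 20 genes ended these calls too (0.0311 to 0.859). The 4 genes are part of that sum, so the scaling removes their shared change by construction and is no check of them. In ABpIF/F vs Ctrl edgeR and DESeq2 each called 0 of 20 in either direction, 1 gene was higher and 0 lower at an unadjusted p below 0.05, and the median was 0.11. Their summed level was 222 to 321 CPM in Ctrl, 95.0 to 237 CPM in ABpIF/+ and 231 to 363 CPM in ABpIF/F mice. *Cdh5* itself was at 11.8 to 20.0 CPM in Ctrl, at 2.26 to 8.38 CPM in ABpIF/+ and at 16.9 to 19.7 CPM in ABpIF/F mice, and its call in ABpIF/+ vs Ctrl was lost with strain label as a covariate (-1.06, adjusted p = 0.2), as was that of *Icam2* (-1.81, adjusted p = 0.0374).

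Set against the sum of these 20 genes, *Clec4g* was 19.1% ± 1.92 (SD, n = 6) in Ctrl and 13.6% ± 1.64 (SD, n = 6) in ABpIF/+ mice, without overlap. *Pecam1* was 6.07% ± 0.666 in Ctrl and 14.2% ± 3.78 in ABpIF/+ mice, and *Stab1* 18.3% ± 0.94 and 38.4% ± 14.4, in both cases with every ABpIF/+ mouse above every Ctrl mouse. These ratios show unequal change among endothelial genes and not that any of them was constant. When the libraries were scaled to the 20 genes in place of TMM, *Clec4g* and *Rspo3* had log2 fold changes of -0.50 and -0.62 in ABpIF/+ vs Ctrl and were not called, *Stab1* (1.06, edgeR adjusted p = 0.00225) and *Pecam1* (1.23, edgeR adjusted p = 0.000378) were called upward, and *Stab2* and *Lyve1* changed sign without a call. It also ended the ABpIF/+ vs Ctrl calls of *Cdh5* and *Icam2*, which are part of the sum, and of *Plxnc1*, *Ehd3*, *Cd55*, *Nrp2*, *Cd44* and *Axin2*. The calls of *Oat*, *Bmpr2*, the macrophage markers *Lyz2* and *Csf1r* and the lymphocyte markers *Cd79a*, *Cd79b* and *Ptprc* were lost as well. Log2 fold changes of all these genes lay between -1.15 and -0.26 under this scaling. That scaling moved the median of all genes with at least 1 CPM to 0.90, and relative to that median *Stab1* was at 0.17, *Pecam1* at 0.33, *Clec4g* at -1.40 and *Rspo3* at -1.51. Taking off this median centers the values on all genes again, much as TMM does. These last values therefore do not show that *Clec4g* or *Rspo3* held up under the scaling.

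Other genes of sinusoidal or central vein endothelium gave 4 of 20 called lower in ABpIF/+ vs Ctrl and 0 of 20 higher: *Kit* (-1.73), *Plxnc1* (-1.43), *Ehd3* (-1.39) and *Cd55* (-1.32). Their median was -0.90. *Maf*, a transcription factor of sinusoidal endothelium, had -0.89 (edgeR adjusted p = 5.06e-05) and *Gata4*, the master regulator of that identity, -0.52 (adjusted p = 0.0434), both under 2-fold. With strain label as a covariate all 4 calls were lost, at adjusted p of 0.046, 0.0724, 0.0537 and 0.0165 in the same order. In ABpIF/F vs Ctrl edgeR and DESeq2 each called 0 of 20 in either direction, with 2 higher and 1 lower at an unadjusted p below 0.05. Summed levels were 311 to 415 CPM in Ctrl, 141 to 298 CPM in ABpIF/+ and 285 to 411 CPM in ABpIF/F mice.

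Genes of continuous, capillarized or activated endothelium did not follow the same order. *Esm1*, endocan, a marker of VEGF-stimulated tip cells, rose in both mutant groups, from a mean of 0.520 CPM in Ctrl to 6.59 CPM in ABpIF/+ (log2 fold change 3.64, edgeR adjusted p = 0.000353) and 11.1 CPM in ABpIF/F mice (4.39, edgeR adjusted p = 0.000279). With strain label as a covariate neither was called (adjusted p = 0.117 and 0.0779), nor was the second with clock score (0.0181). In ABpIF/F vs Ctrl 5 of 16 rose, including *Cd34* (1.38), a marker of continuous capillaries, and *Apln*, a ligand of sprouting endothelium, which was at least 2.36-fold higher than the level of 3 reads per library. *Cd34* and *Apln* were not called without BG38 (adjusted p = 0.0924 and 0.164), nor *Cd34* without the Ctrl mice malpa454, malpa459 or malpa462 (0.0133 to 0.0148) or *Apln* without BG3, BG88, malpa387, malpa454 or malpa459 (0.0123 to 0.0159), and *Apln* was not called by DESeq2 (adjusted p = 0.0233) or with only the groups compared in the fit (0.0116). Both calls were also lost with strain label (*Cd34* 0.258, *Apln* 0.202) or clock score (0.181 and 0.0983) as a covariate and with scaling to the pan-endothelial genes (0.0626 and 0.0194). In ABpIF/+ vs Ctrl 1 of 16 rose and 3 of 16 fell, among them *Ackr1*, the chemokine receptor of venules (-2.68). Summed levels were 118 to 175 CPM in Ctrl, 99.8 to 152 CPM in ABpIF/+ and 212 to 313 CPM in ABpIF/F mice.

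Markers of other cell types differed in both directions between ABpIF/+ and Ctrl mice. Of 12 macrophage and Kupffer cell markers 7 fell, such as *Adgre1* (-1.92) and *Timd4* (-1.85), and 10 of 12 stellate cell markers fell, such as *Lrat* (-2.48) and *Col1a1* (-4.30). Stellate markers summed to 309 to 524 CPM in Ctrl and 94.0 to 185 CPM in ABpIF/+ mice. With strain label as a covariate *Adgre1* (adjusted p = 0.0144), *Csf1r* (0.0219), *Lyz2* (0.0611) and the stellate marker *Rgs5* (0.153) were not called. Of 10 lymphocyte markers 4 fell. Among these, *Cd79a*, *Cd79b* and *Ptprc* were not called with strain label as a covariate (edgeR adjusted p between 0.026 and 0.167). Neutrophil markers were higher by sign in 7 of 7 cases, with 0 called by edgeR (4 at an unadjusted p below 0.05) and 3 called by DESeq2, and their sum was 0.600 to 1.97 CPM in Ctrl and 2.22 to 8.70 CPM in ABpIF/+ mice, without overlap. Of 7 cholangiocyte markers 1 rose (*Sox9*, 2.61) and 1 fell, with sums of 35.8 to 68.2 CPM in Ctrl and 30.1 to 145 CPM in ABpIF/+ mice. Hepatocyte markers summed to 99410 to 133000 CPM in Ctrl and 171400 to 242100 CPM in ABpIF/+ mice, although of the 9 genes found 5 were higher and 4 lower by sign, with a median log2 fold change of 0.16. Of these 9, 2 rose, among them *Apoa1* (2.21), and the 1 lower at an adjusted p below 0.01 was short of 2-fold. In ABpIF/F mice the stellate sum was 281 to 415 CPM and the hepatocyte sum 126200 to 220000 CPM. The part of these levels in the values of the members was not tested.

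**Figure D4:**
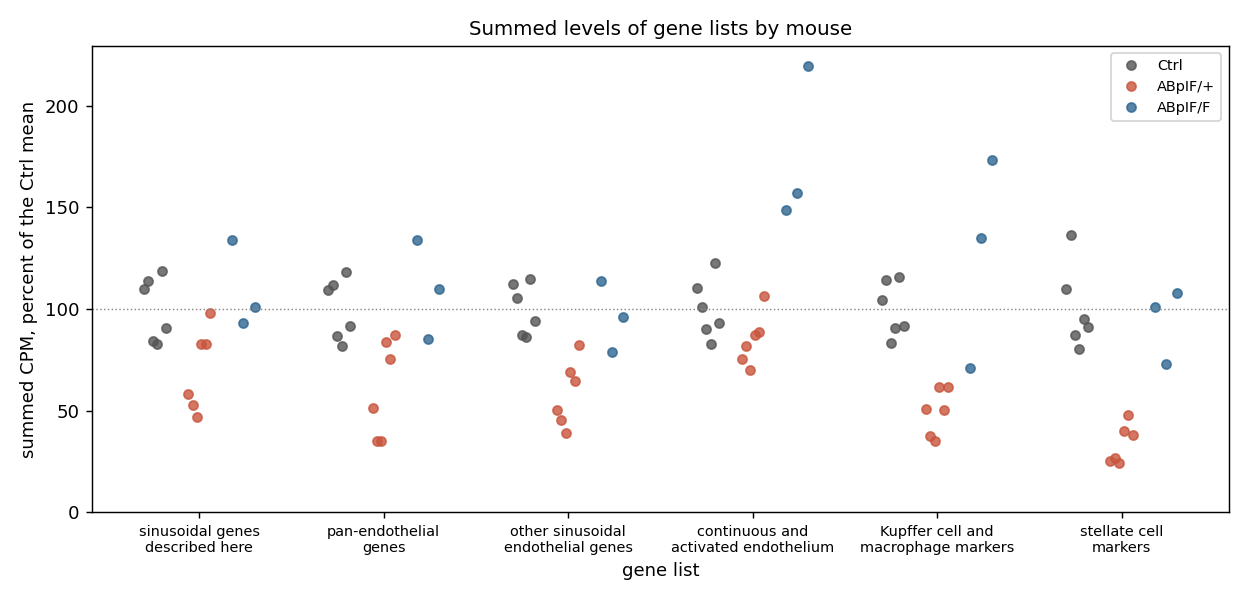
Summed CPM of gene lists in each mouse in percent of the Ctrl mean (vertical axis from 0, dotted line at 100%). In ABpIF/+ mice the pan-endothelial sum (95.0 to 237 CPM), the macrophage sum (186 to 326 CPM) and the stellate sum (94.0 to 185 CPM) all lie toward or below the lower end of the Ctrl mice, and the continuous and activated endothelial sum is highest in the ABpIF/F mice.

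Wnt and R-spondin signaling was followed from ligand to target. Besides *Rspo3* and *Wnt2*, the central vein ligand *Wnt9b* was at 1.43 CPM ± 0.451 (SD) in Ctrl, 0.750 ± 0.535 in ABpIF/+ and 0.743 ± 0.190 in ABpIF/F mice, and was not called. The R-spondin receptor *Lgr4* was at 68.7, 66.2 and 69.4 CPM on average in the 3 groups. *Lgr5*, a receptor that is also a Wnt target, fell in ABpIF/+ mice (-2.78, edgeR adjusted p = 0.000477) and had -2.09 in ABpIF/F mice (adjusted p = 0.0269). *Axin2*, a general Wnt target, had -1.37 (edgeR adjusted p = 0.00111) and -1.29 (adjusted p = 0.0171), the first called. Of the hepatocyte targets, *Glul*, glutamine synthetase, fell in both groups (-2.15 and -2.55), as did the ammonium transporter *Rhbg* (-3.19 and -1.89) and the cytochrome *Cyp1a2* (-3.25 and -2.47), and *Lect2* fell in ABpIF/+ mice (-1.98). The *Lgr5* and *Axin2* calls were lost with strain label as a covariate (adjusted p = 0.0154 and 0.286). Over the whole pathway list, *Rspo3* included, 13 of 34 genes were down and 0 up in ABpIF/+ vs Ctrl (3 higher at an unadjusted p below 0.05 in edgeR, 0 called by DESeq2), and 8 were down and 2 up in ABpIF/F vs Ctrl. The target *Glul* was at 185 to 307 CPM in ABpIF/+ mice. In the ABpIF/F mice it was at 283, 222 and 56.3 CPM from highest to lowest. All of these lay below the lowest Ctrl mouse, at 861 CPM. *Rspo3* in ABpIF/F mice was also below every Ctrl mouse, and its mean lay between those of the other groups. Means of *Wnt2* were 0.973 CPM in ABpIF/+ and 0.931 CPM in ABpIF/F mice. Whether the targets follow these ligands was not tested.

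**Figure D5:**
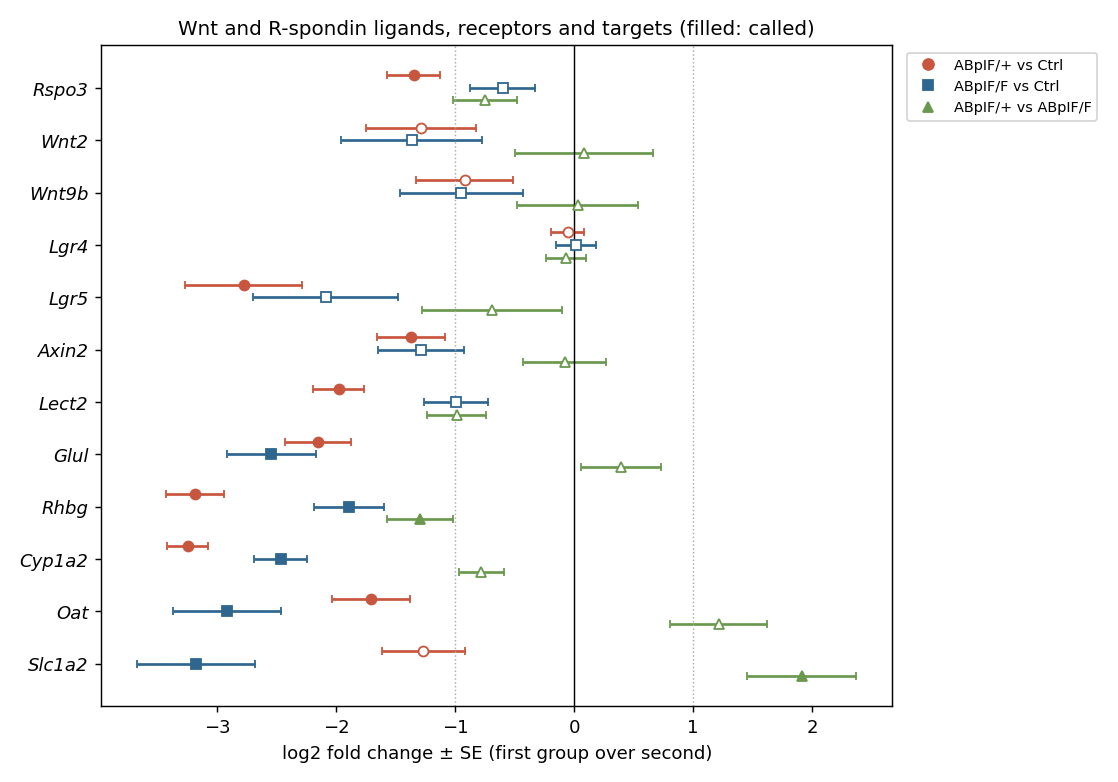
Log2 fold changes with standard errors of Wnt and R-spondin ligands, receptors and hepatocyte targets in the 3 comparisons, filled where called. *Lgr4* lies near 0, and *Glul*, *Rhbg* and *Cyp1a2* lie below -1 in both comparisons with Ctrl.

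Among the genes of VEGF and angiopoietin signaling, the ligand *Vegfa* was at 167, 160 and 129 CPM on average in Ctrl, ABpIF/+ and ABpIF/F mice and was not called in any comparison. The decoy receptor *Flt1* was at 7.503, 5.41 and 6.94 CPM and was not called either. The co-receptors of *Kdr* fell in ABpIF/+ mice: *Nrp1* from 104.2 to 158 CPM in Ctrl to 18.8 to 57.2 CPM (log2 fold change -2.11, edgeR adjusted p = 8.76e-06), and *Nrp2* by 1.81 on the log2 scale. In ABpIF/F mice *Nrp1* was at 50.3, 76.6 and 103.9 CPM, below every Ctrl mouse, and *Nrp2* fell (-1.60). *Angpt1* (2.06) and *Angpt2* (2.28), the ligands of the receptor TIE2, rose in ABpIF/F mice. The call of *Angpt2* was lost without BG38 (1.55, adjusted p = 0.119) and without BG3, BG175, BG183, malpa454, malpa458 or malpa462 (adjusted p between 0.0107 and 0.015), and with strain label (1.91, adjusted p = 0.377) or clock score (2.16, adjusted p = 0.126) as a covariate.

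Endothelial BMP ligands that set hepcidin in hepatocytes were measured with their target. *Bmp2* was at 14.9 CPM ± 2.34 (SD) in Ctrl, 9.62 ± 5.25 in ABpIF/+ and 12.7 ± 4.92 in ABpIF/F mice, and *Bmp6* at 4.93 ± 0.633, 4.95 ± 2.67 and 8.28 ± 3.51 CPM. Neither was called, nor was the hepcidin gene *Hamp*, which was between 278 and 2050 CPM over the 15 mice. The BMP target *Id1* rose in ABpIF/+ mice (3.08, edgeR adjusted p = 0.000491), and the ligand *Bmp5* fell (-2.05). The *Id1* call was lost with strain label as a covariate (2.58, adjusted p = 0.193). Of 20 genes in the list 2 rose and 2 fell in ABpIF/+, and 1 rose in ABpIF/F vs Ctrl.

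Hyaluronan, the ligand of stabilin-2 and LYVE1, is made by hyaluronan synthases, of which *Has2* had no reads in any mouse. Its receptor *Cd44*, carried mostly by leukocytes, fell in ABpIF/+ mice (-1.32, edgeR adjusted p = 0.00371) and was at 7.02, 12.7 and 28.9 CPM in the ABpIF/F mice against 7.21 to 10.6 CPM in Ctrl. *Vcan*, a hyaluronan-binding proteoglycan, rose in ABpIF/F mice, where it was at 0.751, 5.04 and 20.3 CPM against 0.0622 to 0.372 CPM in Ctrl (log2 fold change 5.54, edgeR adjusted p = 3.03e-05). The *Cd44* call was lost without BG40 (adjusted p = 0.0112) or BG55 (0.0109) and with strain label as a covariate (0.181), and the *Vcan* call with strain label (0.0292) or clock score (0.0124) as a covariate. The mouse with the highest *Vcan*, *Cd44* and *Lyve1* was the same, BG38.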

How the data were processed

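Raw counts per gene and mouse were analysed as deposited. Per the study's methods, the authors prepared stranded mRNA libraries from liver RNA, sequenced paired ends, trimmed the reads and used HISAT2 (2.2.1) for alignment to mm10 and featureCounts (2.0.8) for the deposited counts; the annotation used for counting is not given in the sources used here. Columns were matched to mice by name. The study lists 23 samples for 15 mice, and libraries of 1 mouse were not told apart. A second deposited file held the same counts in 10 columns, and its 5 further columns were not used. Deposited columns of the authors' fold changes and p-values were not used.

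Counts were tested in R 4.3.3 with edgeR 4.0.16 (TMM, robust quasi-likelihood test in the form of edgeR 3.36, all 27179 genes, 3 groups in 1 fit). DESeq2 1.42.0 was an alternative, as were RLE, filterByExpr, the quasi-likelihood form of edgeR 4, fits on only the groups compared, scaling to pan-endothelial genes, strain label or clock score as a covariate, an adjusted p under 0.05, and leaving out each mouse. The scripts were tested on simulated data. Log2 CPM used a prior count of 2, and a floor of 3 reads per library covers counting error only. Replicates are mice. The members and lists were chosen with earlier results of these data known. Named genes are the members, up to 4 called genes with the largest change per list, direct partners of the members and *Icmt*. Lists were counted without a set test. Promoters of 5 members were found.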

Additional observations from a re-analysis of the deposited data

Results flagged for a closer look

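*Lyve1* was at 11.4 CPM in the Ctrl mouse malpa459, a sample far from the others of its group: its gap to the nearest Ctrl mouse was 0.703 of the group's whole range. This was the 1 value of 20 groups tested that stood apart in this way, and chance gives about 1 such group in 20. The ABpIF/F mouse BG90, at 10.2 CPM, lay below it.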

How the results depend on the processing

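No paired analysis was possible because each mouse belongs to 1 group, the columns carry mouse names, and replicate numbers follow the order of the labels only. In ABpIF/+ vs Ctrl, the count of downregulated members was 2 and became 3 with DESeq2 and with filterByExpr, 0 with scaling to the pan-endothelial genes, 1 with strain label as a covariate and 6 at an adjusted p below 0.05 with no fold threshold; 2 to 3 were called when a mouse was left out (3 without BG88 or without BG30). The count of upregulated members was 0 and became 2 with scaling to the pan-endothelial genes. In ABpIF/F vs Ctrl, the 1 upregulated member became 0 with strain label or with clock score as a covariate, 2 at an adjusted p below 0.05, and 0 to 1 when a mouse was left out (0 without BG38). In ABpIF/+ vs ABpIF/F, the 1 downregulated member became 2 with DESeq2 and with filterByExpr, 0 with clock score as a covariate, 3 at an adjusted p below 0.05, and 1 to 2 when a mouse was left out (2 without BG88 or without BG30). *Bmpr2*, called lower in ABpIF/+ vs Ctrl, turned to 0.42 with strain label as a covariate. The cause was not tested. With 3 ABpIF/F mice and 1 Ctrl mouse of the mutants' strain label, the covariate fits have little information. *Wnt2* and *Rspo3* rest on the fewest reads.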
